A study of Homo sapiens with 24 samples.

Results

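The nuclear pore and nuclear transport genes were taken as every row of the deposited table whose symbol begins with NUP, KPNA, KPNB, IPO, XPO or TNPO followed by a number, or is XPOT. The rule found 46 rows of 23284. Of these, 44 fell into 10 role groups of pore proteins and carriers; the other two were NUP62CL and the pseudogene NUP210P1. Pores of the nuclear envelope are built from nucleoporins arranged as outer and inner rings, a channel lined with disordered repeats, a cytoplasmic face and a nuclear basket. Soluble carriers take cargo through them: importin alpha adaptors work with importin beta, transportins and other importins bind cargo directly, and exportins carry cargo out, all under the control of the small GTPase Ran. TNPO3 is the transportin known for importing the serine/arginine-rich splicing factors that act on pre-mRNA in the nucleus.

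RNA was sequenced from human liver cancer cells of 6 lines, which the labels call Hep3b, Huh1 and Huh7, HepG2, HLE, and SK-HEP1. From each came 4 libraries: cells with a control siRNA (siCTL), cells with an siRNA against SFPQ (siSFPQ), and both of these after 24 hours with TGF-beta (2 ng per ml), a secreted growth factor. SFPQ is a nuclear RNA-binding protein that takes part in splicing and in paraspeckles. With 1 library of every line in each of the 4 groups (n = 6), the lines are the replicates. The p-values set the mean change within a line against the spread of that change over the lines. The labels name no separate cultures within a line, no further siRNA against SFPQ and no rescue, so an effect of SFPQ loss and an off-target effect of the siRNA cannot be told apart.

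Values are FPKM (fragments per length of transcript and per total of mapped fragments), which are scaled by length and allow levels to be compared between genes. Relative depth, estimated from low values, ran from 0.352 to 1.73 times that of the median library and was lowest in the Huh7 library with siSFPQ and TGF-beta. SFPQ itself checked the labels: without TGF-beta it was at 167, 90.4, 198, 103, 247 and 185 FPKM in siCTL cells of the lines in the order Hep3b, Huh1, Huh7, HepG2, HLE, SK-HEP1, and at 40.5, 36.5, 51.4, 46.6, 23.5 and 24.3 FPKM in siSFPQ cells in the same order. The libraries labelled Hep3b stood apart. Hepatocyte marker genes summed to 8.01 to 14.2 FPKM over the 4 Hep3b libraries, against 1226 to 19104 FPKM in Huh1, Huh7 and HepG2 and 24.4 to 126 FPKM in HLE and SK-HEP1, and 3 of the 14 markers reached 1 FPKM in all Hep3b libraries. Albumin (ALB) was at 0.95 FPKM in the Hep3b siCTL library, and at 0.73 in that of HLE and 0.72 in that of SK-HEP1. AFP, which is not in that list, was at 12.7 FPKM in the Hep3b siCTL library, 23.3 in Huh1, 187 in HepG2 and 8400 in Huh7. In HLE and SK-HEP1 it was at 0.67 and 0.09 FPKM. The name Hep3b below stands for the library label only, and the main counts are also given without it.

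The levels of the members in siCTL cells without TGF-beta covered a wide range. The importin alpha KPNA2, which carries cargo with classical nuclear localization signals, was highest, with a median of 200.3 FPKM over the 6 lines (lowest 86.3, highest 422). Its partner importin beta, KPNB1, followed at 137 FPKM (92.4 to 214), then the main protein exportin XPO1 at 82.7 (49.4 to 102), IPO7 at 79.3 (46.4 to 97.2) and the tRNA exportin XPOT at 68.8 (62.4 to 107). The ranges of these neighbours overlapped, so their order is not fixed by the lines. TNPO3 lay at rank 25, with a median of 26.7 FPKM (23.1 to 39.5). Its relatives TNPO1, which imports hnRNP proteins, and TNPO2 lay at 46.4 FPKM (22.7 to 69.9) and 22.8 FPKM (19.5 to 41.9). At the low end, the importin alpha KPNA5 had a median of 2.54 FPKM (2.41 to 3.59), and the NUP210 relative NUP210L did not exceed 0.09 FPKM in any siCTL library.

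Some members differed far more between lines than between treatments. The pore membrane glycoprotein NUP210 was at 88.6 FPKM in Hep3b, 42.5 in HepG2, 40.2 in Huh7, 16.8 in Huh1, 8.55 in HLE and 0.82 in SK-HEP1. XPO4 was at 0.04 FPKM in HLE and between 5.07 and 14.0 FPKM in the other 5 lines, and its HLE level was at most 0.05 FPKM in any of the 4 groups. The importin alpha KPNA7 was at 7.06 FPKM in Huh1 and at most 0.73 FPKM in the other lines in siCTL cells without TGF-beta. KPNA7 also differed between treatments, and reached 3.35 FPKM in HLE and 3.41 FPKM in HepG2 in siSFPQ cells with TGF-beta. NUP98, whose protein precursor is cleaved into NUP98 of the channel and NUP96 of the outer ring, was at 131.7 FPKM in Hep3b against 20.7 to 39.5 FPKM in the other lines. The exons of NUP98 overlap those of CHRNA10 and PGAP2 in the annotation, and the counting is not stated to use strand, so its reads may include those of a neighbour. The same holds for IPO11, IPO4, NUP188, NUP43, NUP62, NUP88 and XPO5.

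**Figure D1:**
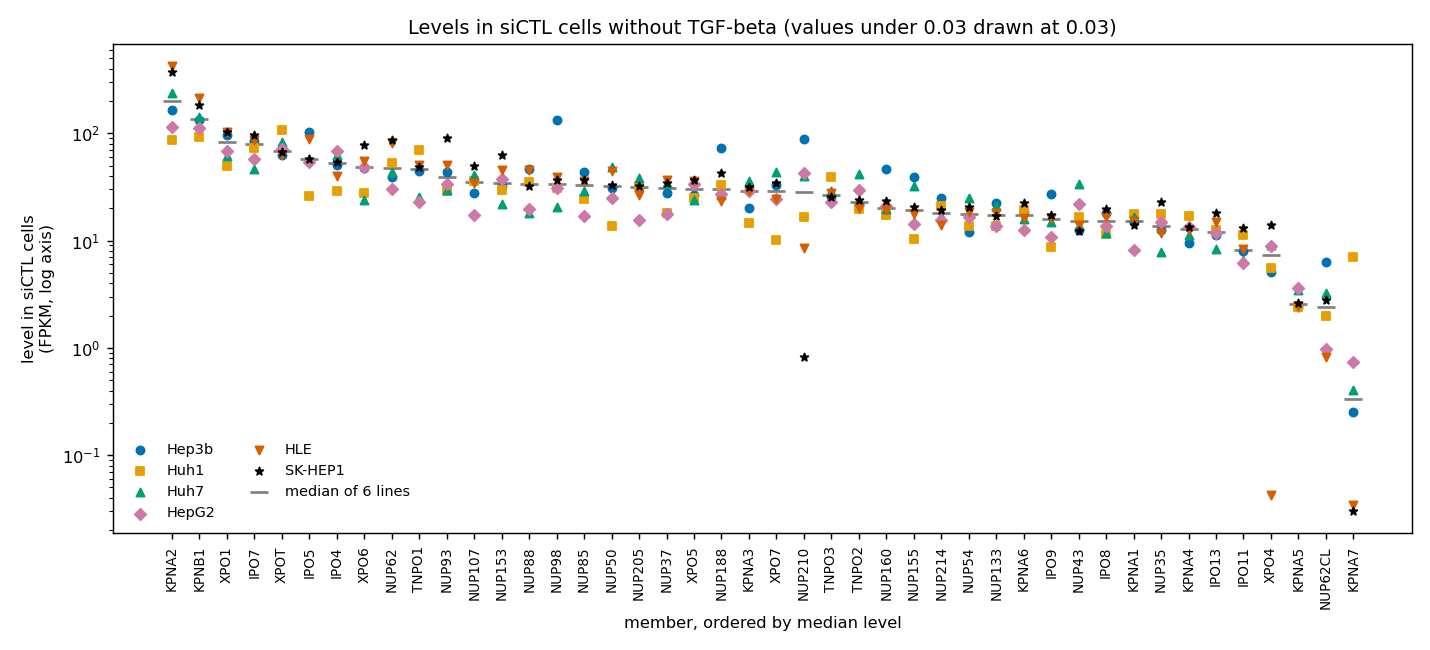
Levels (FPKM, log axis) of the members in siCTL cells without TGF-beta, 1 point per cell line, ordered by the median of the 6 lines (grey bar); members under 1 FPKM in every line are not drawn. KPNA2 is highest with a median of 200.3 FPKM, and the widest gaps between lines are those of NUP210 (0.82 in SK-HEP1), XPO4 (0.04 in HLE) and KPNA7 (7.06 in Huh1).

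TNPO3 was the member that SFPQ knockdown changed most. Without TGF-beta it was at 25.7, 39.5, 28.9, 23.1, 27.7 and 25.7 FPKM in siCTL cells of the lines in that order. In siSFPQ cells it was at 8.98, 15.9, 10.8, 11.1, 4.96 and 3.41 FPKM in the same order. Every siSFPQ library lay below every siCTL library, with HLE and SK-HEP1 the lowest. TNPO3 fell by 1.65 on the log2(FPKM + 1) scale (SE 0.20, limma adjusted p = 0.00273), to 0.319 times its siCTL level of FPKM + 1. It fell in 6 of 6 lines, and ranked 10 from the most negative change among the 12013 genes tested. TNPO3 was also the 1 member of 43 tested whose groups did not overlap, as was so for 0.649% of all genes tested.

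With TGF-beta present TNPO3 gave nearly the same values. It ran from 24.9 to 37.1 FPKM in siCTL cells (median 27.9) and from 3.60 to 16.7 FPKM in siSFPQ cells (median 10.0), again with no overlap (0.774% of all genes tested). TNPO3 fell by 1.64 (SE 0.21, limma adjusted p = 0.00259) and ranked 12 of 12023 genes. TGF-beta itself was followed by differences of 0.02 in siCTL cells (adjusted p = 0.846) and 0.03 in siSFPQ cells (adjusted p = 0.734), and the interaction was 0.01 (adjusted p = 0.964), so no difference of the TNPO3 response with TGF-beta was detected by limma.

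The size of the TNPO3 change differed between lines. Without TGF-beta TNPO3 in siSFPQ cells was at 35.0% of its siCTL level in Hep3b, 40.4% in Huh1, 37.3% in Huh7, 47.9% in HepG2, 17.9% in HLE and 13.3% in SK-HEP1. SFPQ was at 24.2%, 40.4%, 26.0%, 45.2%, 9.49% and 13.1% in the same lines. The lines with the least SFPQ left were those with the least TNPO3 left. As a description over these 6 lines, Pearson's r was 0.93 and Spearman's rho 0.94 without TGF-beta, and 0.91 and 0.89 with it; the values of a line share libraries, and no p is given. Among the transportins, TNPO3 made up 28.9% ± 1.74 of the summed FPKM in siCTL cells and 10.9% ± 4.79 in siSFPQ cells (SD, n = 6). TNPO1 differed by 0.11 (SE 0.10, adjusted p = 0.469) and TNPO2 by 0.09 (SE 0.10, adjusted p = 0.557) without TGF-beta, and neither was called by limma. With TGF-beta TNPO1 differed by 0.19 (adjusted p = 0.0972), and it was called higher there under the common median ratio, a scaling of libraries to 1 median (0.30, adjusted p = 0.0292). It was also called higher there by limma with each library's trend over the GC content of genes removed (0.35, adjusted p = 0.0213).

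**Figure D2:**
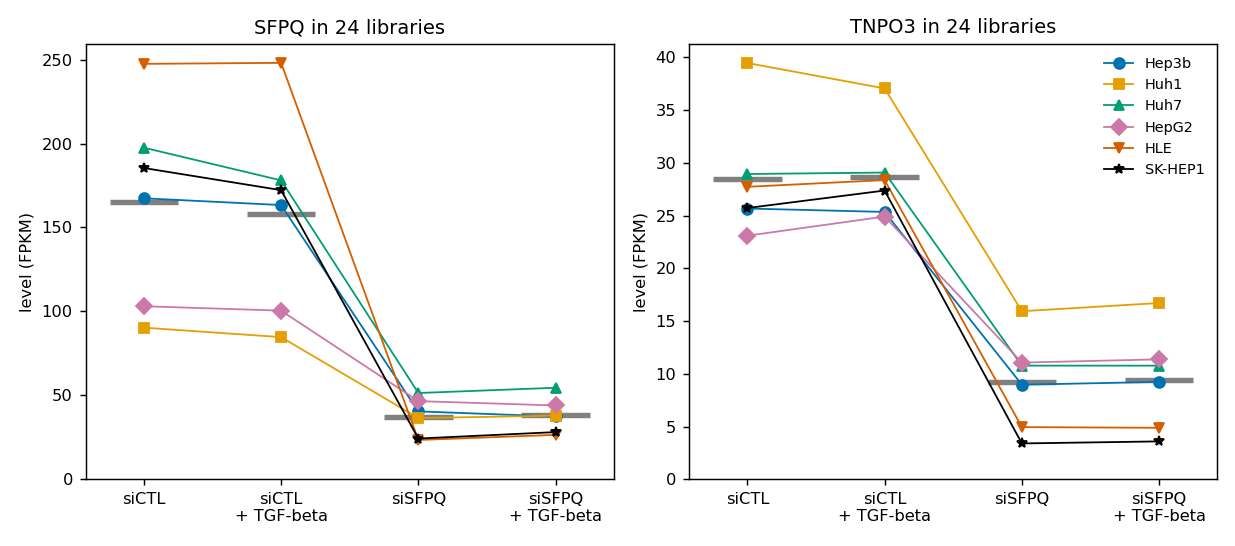
Levels (FPKM) of SFPQ (left) and TNPO3 (right) in all 24 libraries, with 1 line of points per cell line and a grey bar at the mean of each group. TNPO3 in the siSFPQ groups stays at or below 16.7 FPKM, under the lowest siCTL library at 23.1 FPKM, and HLE and SK-HEP1 are lowest.

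TNPO3 is shown with the promoters of KPNA2 and NUP155, the members with the largest falls after it without TGF-beta. The letters are the 250 bases before the start of each gene, 5′ to 3′ on the gene's strand, from RefSeq on GRCh38.p14, another build than the hg19 of the deposited values. TNPO3 lies at chr7:129055112-129055361 (minus strand), KPNA2 at chr17:68035485-68035734 (plus strand) and NUP155 at chr5:37371107-37371356 (minus strand). Capitals mark matches to the motifs given after the sequences.
TNPO3: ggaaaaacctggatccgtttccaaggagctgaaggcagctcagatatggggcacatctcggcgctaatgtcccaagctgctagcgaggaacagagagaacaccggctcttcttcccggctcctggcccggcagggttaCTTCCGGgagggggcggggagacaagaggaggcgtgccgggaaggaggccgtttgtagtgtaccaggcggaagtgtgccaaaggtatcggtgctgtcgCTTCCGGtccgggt
KPNA2: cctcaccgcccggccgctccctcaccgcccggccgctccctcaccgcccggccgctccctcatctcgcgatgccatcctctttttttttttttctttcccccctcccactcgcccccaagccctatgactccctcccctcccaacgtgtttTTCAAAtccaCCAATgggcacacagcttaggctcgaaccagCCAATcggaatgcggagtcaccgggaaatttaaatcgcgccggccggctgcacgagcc
NUP155: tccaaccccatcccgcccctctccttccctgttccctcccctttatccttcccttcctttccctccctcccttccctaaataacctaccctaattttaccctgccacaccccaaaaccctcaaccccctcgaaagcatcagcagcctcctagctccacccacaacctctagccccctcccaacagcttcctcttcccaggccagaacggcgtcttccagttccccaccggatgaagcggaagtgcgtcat
The motifs were searched on both strands: the ETS motif CCGGAAG, the CCAAT box CCAAT, the cell cycle element CHR as TTTGAA, the NRF1 motif, and the E2F forms TTTCCCGC and TTTGGCGC. The TNPO3 window held the ETS motif at 2 places and none of the others. The KPNA2 window held CCAAT at 2 places and CHR at 1, with no overlap between them. The NUP155 window held none of these letters.

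Promoter windows were found for 39 of the 46 members, 51 windows in all since some genes have several starts. CCAAT stood in 24 of the 51 windows (47.1%), against 32.0% of all 35116 RefSeq windows of this length. ETS stood in 11 (21.6%, against 8.52%), CHR in 10 (19.6%, against 13.3%) and NRF1 in 7 (13.7%, against 5.08%). The E2F forms stood in 0, against 1.39% and 0.55%. A match to these letters is a description of the window and no evidence that a factor binds it. Windows of the same gene were counted separately, and the RefSeq windows were not limited to genes expressed in these cells. The shares carry no test and do not set the members apart from other expressed genes.

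Beyond TNPO3, knockdown without TGF-beta moved a minority of the pore and transport genes. Of 43 members tested, 6 were called lower and 2 higher at an adjusted p under 0.05, where 21.7% of all genes tested were called (15.0% lower and 6.69% higher). NUP210L, NUP210P1 and KPNA7 were too low to be tested. The 8 calls are 18.6% of the members tested, no more than the background. The median change of the members tested was -0.05 and that of all genes tested -0.07. With each library scaled to a common median ratio the split of member calls became 4 lower and 4 higher, and with each library's GC trend removed 3 lower and 5 higher. Without the Hep3b libraries it was 5 lower and 2 higher, without Huh7 2 lower and 1 higher, without HepG2 6 lower and 1 higher, and without HLE or without SK-HEP1 TNPO3 alone was called lower. With no filter on low values the calls were TNPO3 and KPNA5 alone.

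With TGF-beta in both groups, 9 members were called lower and 3 higher by limma, where 30.3% of all genes tested were called (21.8% lower and 8.47% higher). The median change was -0.08 for the members tested and -0.09 for all genes tested. The common median ratio gave 6 lower and 8 higher, and GC trend removal 5 lower and 9 higher. GC trend removal moved the median of all genes tested from -0.09 to 0.02. Without Hep3b the calls were 11 lower and 1 higher, without HLE 5 lower and 2 higher, and without SK-HEP1 4 lower and 1 higher. The members called lower in both knockdown comparisons were TNPO3, KPNA2, XPO1, NUP155, NUP107 and NUP85, and KPNA5 was called higher in both. The comparisons have no libraries in common, but they are of the same lines.

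**Figure D3:**
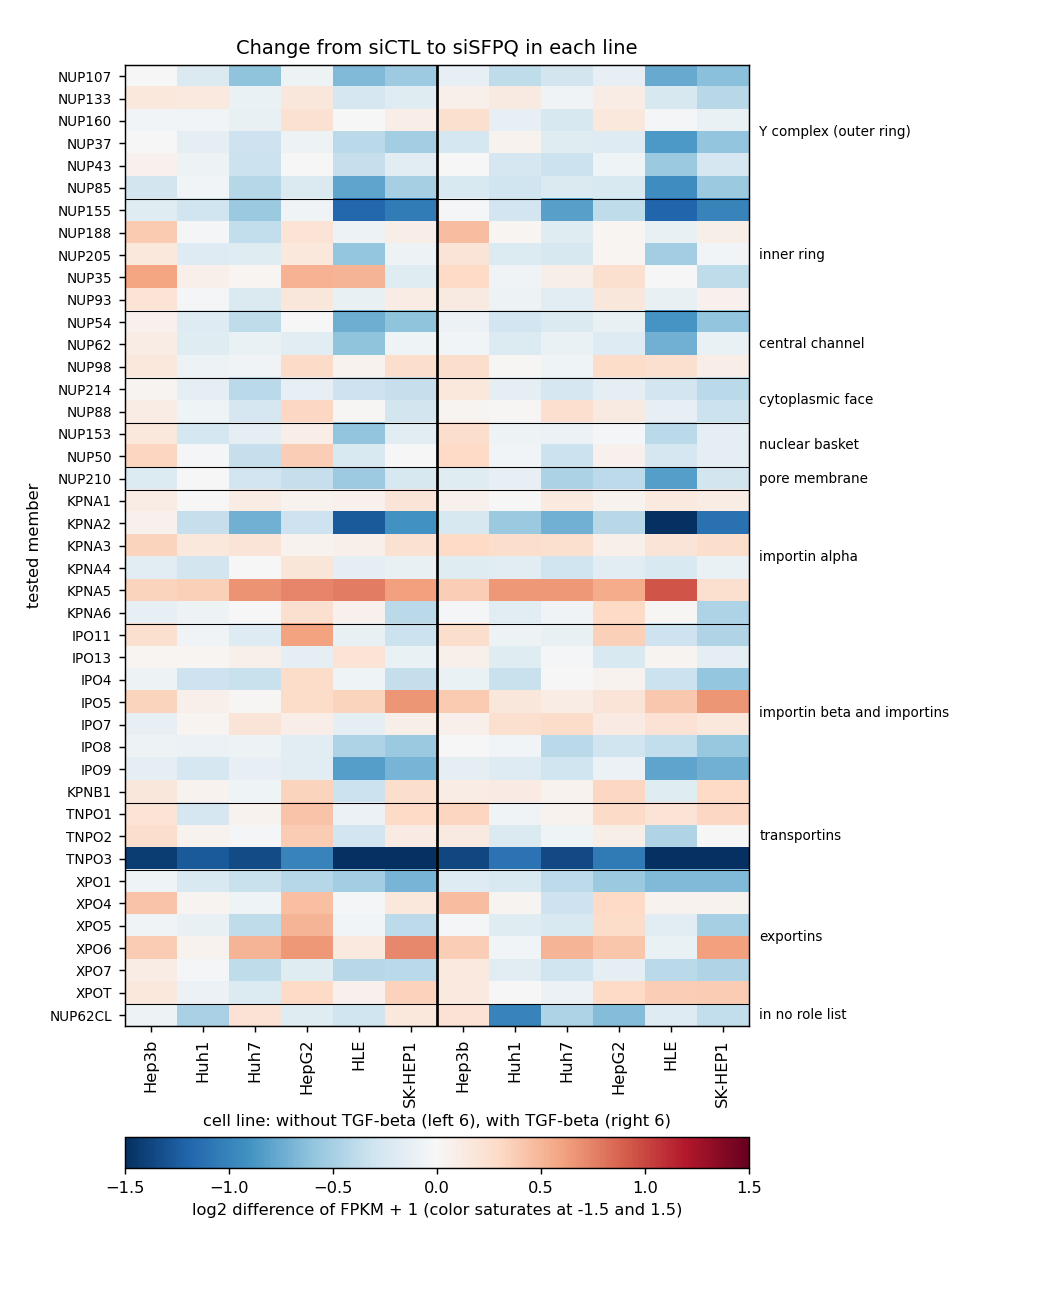
Difference of log2(FPKM + 1) between siSFPQ and siCTL cells of each line (blue lower, red higher) for the 43 tested members, in rows by role; the left 6 columns are without and the right 6 with TGF-beta. TNPO3 is the darkest row in every column but HLE with TGF-beta, where KPNA2 reaches the limit of the color scale too. HLE and SK-HEP1 hold most of the other dark blue cells.

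**Figure D4:**
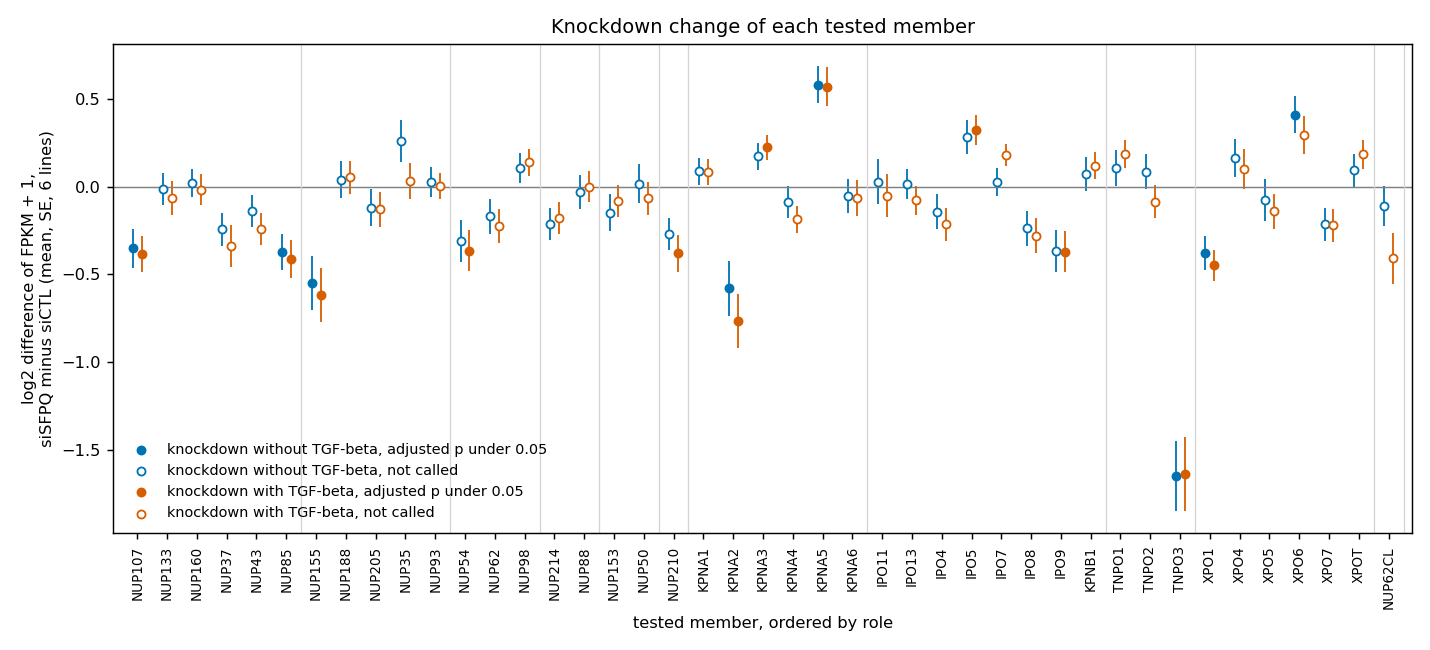
Mean log2 difference (siSFPQ minus siCTL) with its SE over 6 lines for each tested member, ordered by role; filled points have a limma adjusted p under 0.05. TNPO3 lies at -1.65 and -1.64, and every other member lies between -0.77 and 0.58.

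In the outer ring, the Y-shaped complex that also anchors pore assembly, 2 of 6 members were called lower in each comparison and none higher, beside 15.0% of all genes tested called lower without TGF-beta and 21.8% with it. In groups as small as these roles, such counts do not set a role apart from that background. NUP85 ran from 17.0 to 43.5 FPKM in siCTL cells (median 32.7) and from 14.5 to 35.8 FPKM in siSFPQ cells (median 22.6). It fell by 0.37 (SE 0.10, limma adjusted p = 0.0317), and by 0.41 (SE 0.11, adjusted p = 0.0214) with TGF-beta, in 6 of 6 lines each time. NUP107 ran from 17.4 to 49.7 FPKM (median 35.2) and from 16.5 to 33.6 FPKM (median 27.2); it fell by 0.35 (SE 0.11, adjusted p = 0.0464) and by 0.38 (SE 0.10, adjusted p = 0.0232). The groups of both genes overlapped, and the lines differed more from each other than the siRNAs did. Without TGF-beta the NUP85 call was lost on leaving out Hep3b, Huh7, HLE or SK-HEP1 (adjusted p 0.0551 to 0.0819) and that of NUP107 on leaving out Huh1, Huh7, HLE or SK-HEP1 (0.0678 to 0.123). With TGF-beta NUP85 was lost without SK-HEP1 (0.0561) and NUP107 without HLE or SK-HEP1 (0.0534 and 0.063). Under the common median ratio both calls were lost without TGF-beta (adjusted p = 0.0559 for NUP85 and 0.0762 for NUP107), and NUP107 was lost with it (0.0527). Under GC trend removal both were lost in each comparison: NUP85 had -0.27 (adjusted p = 0.0695) and -0.29 (0.0521), and NUP107 -0.21 (0.124) and -0.22 (0.088). NUP37, NUP43, NUP133 and NUP160 had changes from -0.24 to 0.02 without TGF-beta and from -0.34 to -0.02 with it, and were not called.

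In the inner ring 1 of 5 members was called lower in each comparison, beside the same 15.0% and 21.8% of all genes tested. NUP155, an inner ring scaffold protein, was at 38.9, 10.3, 32.1, 14.2, 17.6 and 20.6 FPKM in siCTL cells of the lines in the order Hep3b, Huh1, Huh7, HepG2, HLE, SK-HEP1, and at 34.2, 8.24, 21.6, 13.6, 7.23 and 9.47 FPKM in siSFPQ cells. Relative to the siCTL level of the line, the HLE and SK-HEP1 values dropped most and those of Hep3b and HepG2 least. The groups overlapped. NUP155 fell by 0.55 (SE 0.15, limma adjusted p = 0.0319), and by 0.62 (SE 0.15, adjusted p = 0.0187) with TGF-beta. The call was lost without Huh7, HLE or SK-HEP1 (adjusted p = 0.0721, 0.0808 and 0.0902) and, with TGF-beta, without SK-HEP1 (0.0533). NUP35, which binds the pore membrane, differed by 0.26 (SE 0.12, adjusted p = 0.147) and 0.03 (SE 0.10, adjusted p = 0.834), and under GC trend removal it was called higher without TGF-beta (0.39, adjusted p = 0.0329). NUP205 differed by -0.12 (SE 0.11, adjusted p = 0.446) without TGF-beta, and NUP93 and NUP188 by 0.03 and 0.04.

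The channel, cytoplasmic face and basket genes had no call without TGF-beta. NUP54, a channel protein with phenylalanine-glycine repeats, differed by -0.31 (SE 0.12, adjusted p = 0.0921), and fell by 0.36 (SE 0.12, adjusted p = 0.043) with TGF-beta. That call was lost on leaving out any line but Hep3b (0.0504 to 0.106), under the common median ratio (-0.26, adjusted p = 0.0931) and under GC trend removal (-0.20, adjusted p = 0.152). Its channel partner NUP62 differed by -0.17 (SE 0.10, adjusted p = 0.241) and NUP98 by 0.11 (SE 0.08, adjusted p = 0.385) without TGF-beta. At the cytoplasmic face NUP214 differed by -0.21 (SE 0.09, adjusted p = 0.114) and NUP88 by -0.03 (SE 0.10, adjusted p = 0.854). In the basket NUP153 differed by -0.15 (SE 0.11, adjusted p = 0.333) and NUP50 by 0.02 (SE 0.11, adjusted p = 0.923). None of these last 5 was called with TGF-beta either, though NUP98 was called higher there under the common median ratio (0.25, adjusted p = 0.046) and under GC trend removal (0.28, adjusted p = 0.0309). NUP210 differed by -0.27 (SE 0.09, adjusted p = 0.0572) without TGF-beta and fell by 0.38 (SE 0.11, adjusted p = 0.025) with it, a call lost without Huh7, HepG2 or HLE (0.0508 to 0.0598).

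Among the importin alphas, the most abundant fell and the least abundant of those tested rose. KPNA2 was at 164, 86.3, 237, 114, 422 and 374 FPKM in siCTL cells of the lines in the order Hep3b, Huh1, Huh7, HepG2, HLE, SK-HEP1, and at 172, 67.5, 143, 91.4, 176 and 199 FPKM in siSFPQ cells. It was lower in 5 of 6 lines, most in HLE, and slightly higher in Hep3b. KPNA2 fell by 0.58 (SE 0.15, limma adjusted p = 0.0272), and by 0.77 (SE 0.16, adjusted p = 0.00931) with TGF-beta, where it was lower in 6 of 6 lines. The call without TGF-beta was lost on leaving out Huh7, HLE or SK-HEP1 (adjusted p = 0.0682, 0.0627 and 0.0822); with TGF-beta it was kept on leaving out any line.

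KPNA5, an importin alpha with low levels in these cells, was at 2.41, 2.41, 3.43, 3.59, 2.44 and 2.65 FPKM in siCTL cells and at 3.30, 3.36, 6.08, 6.65, 4.85 and 4.60 FPKM in siSFPQ cells, in the same order of lines. It was higher in 6 of 6 lines, although the groups overlapped. KPNA5 rose by 0.58 (SE 0.10, limma adjusted p = 0.00756), and by 0.57 (SE 0.11, adjusted p = 0.00761) with TGF-beta, and both calls were kept on leaving out any line. On this scale the change of so low a gene is understated. KPNA3 differed by 0.17 (SE 0.08, adjusted p = 0.135), and rose by 0.22 (SE 0.07, adjusted p = 0.0405) with TGF-beta, a call lost on leaving out any 1 of the 6 lines (0.0546 to 0.0981). Without TGF-beta KPNA3 was called higher under the common median ratio (0.26, adjusted p = 0.0491) and under GC trend removal (0.31, adjusted p = 0.0304). KPNA1, KPNA4 and KPNA6 had changes from -0.09 to 0.09 without TGF-beta and were not called.

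The makeup of the importin alpha family followed these changes. KPNA2 made up 71.2% ± 12 of the summed importin alpha FPKM in siCTL cells and 61.8% ± 9.88 in siSFPQ cells, and 70.1% ± 13.5 and 57.4% ± 11.9 with TGF-beta (SD, n = 6). The KPNA2 share was lower in siSFPQ cells in every line and comparison, by least in Hep3b without TGF-beta (71.3% and 70.9%) and by most in HLE with it (84.5% and 62.1%). KPNA5 made up 1.10% ± 0.56 in siCTL cells and 2.29% ± 0.94 in siSFPQ cells. The shares are sums over transcripts, so they say nothing of protein.

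**Figure D5:**
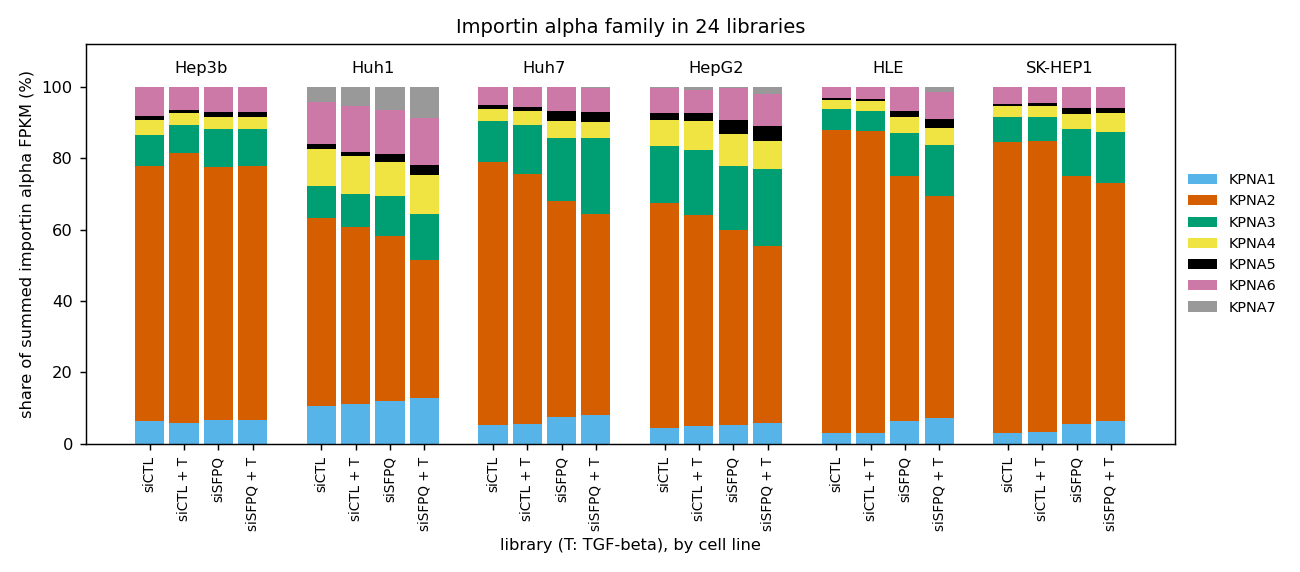
Share (%) of each importin alpha gene in the summed FPKM of the 7 genes, 1 bar per library, by cell line and group. The KPNA2 share is between 52.5% and 84.9% in siCTL cells without TGF-beta and shorter in the siSFPQ bar of each line, while KPNA7 is visible mainly in Huh1.

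Importin beta KPNB1 and the other importins had no call without TGF-beta (0 of 8, 3 at an unadjusted p under 0.05). Of all genes tested, 21.7% were called there and 37.3% had an unadjusted p under 0.05. IPO5, which imports ribosomal proteins and histones, differed by 0.28 (SE 0.10, adjusted p = 0.061), and rose by 0.32 (SE 0.09, limma adjusted p = 0.0225) with TGF-beta, higher in 6 of 6 lines each time. Without TGF-beta it was called under the common median ratio (0.37, adjusted p = 0.0354) and under GC trend removal (0.42, adjusted p = 0.0298). With TGF-beta it ran from 22.2 to 99.5 FPKM in siCTL cells (median 52.2) and from 25.1 to 132 FPKM in siSFPQ cells (median 72.6). The IPO5 call was lost without Hep3b, HLE or SK-HEP1 (0.0506 to 0.0557). IPO9, a carrier of histone dimers, differed by -0.37 (SE 0.12, adjusted p = 0.0509), and fell by 0.37 (SE 0.12, adjusted p = 0.04) with TGF-beta; that call was lost without Huh1, Huh7, HLE or SK-HEP1 (0.0548 to 0.101) under the common median ratio (-0.26, adjusted p = 0.083) and under GC trend removal (-0.22, adjusted p = 0.132). IPO8 differed by -0.24 (SE 0.10, adjusted p = 0.111) without TGF-beta. KPNB1 differed by 0.07 (SE 0.10, adjusted p = 0.615), IPO4, IPO7, IPO11 and IPO13 by -0.14 to 0.03.

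Of 6 exportins, 1 was called lower and 1 higher without TGF-beta, beside 15.0% of all genes tested called lower and 6.69% higher. XPO1, which exports proteins with leucine-rich signals, was at 96.8, 49.4, 61.8, 68.5, 102 and 102 FPKM in siCTL cells of the lines in the order Hep3b, Huh1, Huh7, HepG2, HLE, SK-HEP1, and at 92.6, 41.9, 48.8, 50.9, 70.9 and 62.6 FPKM in siSFPQ cells. It was lower in every line, by least in Hep3b. XPO1 fell by 0.38 (SE 0.10, limma adjusted p = 0.0224), and by 0.45 (SE 0.09, adjusted p = 0.00773) with TGF-beta; the call was lost without HLE or SK-HEP1 (0.0599 and 0.0623) where TGF-beta was absent, and under GC trend removal there (-0.25, adjusted p = 0.0614).

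XPO6, the exportin of actin bound to profilin, ran from 24.0 to 78.4 FPKM in siCTL cells (median 48.2) and from 28.9 to 129.7 FPKM in siSFPQ cells (median 61.9), higher in 6 of 6 lines and most in SK-HEP1. It rose by 0.41 (SE 0.11, limma adjusted p = 0.0239), a call lost without Huh7, HepG2 or SK-HEP1 (0.0553 to 0.0679). With TGF-beta XPO6 differed by 0.30 (SE 0.11, adjusted p = 0.0641), higher in 4 of 6 lines. It was called there by limma without Huh1 (0.0465) and without HLE (0.0336). The same was so under the common median ratio (0.41, adjusted p = 0.0252) and under GC trend removal (0.39, adjusted p = 0.0266). The microRNA precursor exportin XPO5 differed by -0.08, XPOT by 0.09, XPO4 by 0.16 and XPO7 by -0.22 (SE 0.10, adjusted p = 0.133) without TGF-beta, and none of them was called.

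Falls of more than 1.5-fold in FPKM + 1 were most frequent in HLE and SK-HEP1, among the members as among all genes tested. On this scale falls of low genes are understated, so some falls of more than 1.5-fold in FPKM are not counted. An example is NUP210 in HLE without TGF-beta, at 8.55 FPKM in siCTL and 5.57 FPKM in siSFPQ cells. Without TGF-beta, 10 of 43 tested members were lower by more than 1.5-fold in HLE (23.3%, where 17.4% of all genes tested were) and 6 in SK-HEP1 (14.0%, where 22.0% were). The count was 1 in Hep3b (background 7.27%), 1 in Huh1 (2.9%), 3 in Huh7 (10.3%) and 1 in HepG2 (8.65%). With TGF-beta it was 11 in HLE (25.6%, background 20.3%) and 8 in SK-HEP1 (18.6%, background 22.0%), and 1 in Hep3b (6.74%), 2 in Huh1 (4.63%), 3 in Huh7 (11.6%) and 2 in HepG2 (6.32%). These values are of 1 library per line and group and have no test. TNPO3 was among the genes counted in every line.

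Genes of cell division moved with the knockdown in the same libraries, but not evenly over the lines. Of 21 proliferation markers, 15 were called lower and 0 higher by limma in each knockdown comparison, with a median change of -0.66 without and -0.74 with TGF-beta. Among all genes tested, 15.0% were called lower without TGF-beta and 21.8% with it. Their summed level ran from 648 to 2444 FPKM in siCTL cells and from 436 to 1655 FPKM in siSFPQ cells without TGF-beta, and from 430 to 2332 and 283 to 1695 FPKM with it. In Hep3b this sum stayed between 1650 and 1766 FPKM over the 4 groups, while in HLE it ran from 519 to 1833 FPKM. Each of the 21 reached 1 FPKM in every library. Of the hepatocyte markers 0 of 14 were called by limma without TGF-beta (2 at an unadjusted p under 0.05) and 0 of 13 with it (2). Beside these and the marker counts that follow, 21.7% of all genes tested were called without TGF-beta and 30.3% with it. At an unadjusted p under 0.05 the shares of all genes tested were 37.3% and 43.9%. Of 3 tested stellate and fibroblast markers 0 were called without TGF-beta (1 at an unadjusted p under 0.05). With it, 3 of 4 were: COL1A1 rose by 0.98 (SE 0.18, adjusted p = 0.00619), PDGFRB rose by 1.05 (SE 0.16, adjusted p = 0.00419) and RGS5 fell by 0.32 (SE 0.10, adjusted p = 0.0412). The 8 markers of that list summed to 11.4 to 208 FPKM in siCTL cells with TGF-beta and 20.7 to 319.6 FPKM in siSFPQ cells with it. The endothelial marker ESAM, the 1 of 8 that was tested, rose by 0.72 with TGF-beta (SE 0.20, adjusted p = 0.0256), and the immune marker CD68, 1 of 2 tested, rose by 0.36 without it (SE 0.11, adjusted p = 0.0383). The part of these lists in the changes of KPNA2, NUP155 and the other members was not tested. In bulk RNA, fewer dividing cells and less RNA of division genes per cell cannot be told apart. The siSFPQ libraries of HLE and SK-HEP1 also had the lowest median shift of the libraries (down to -0.23 on the log2 scale). Scaling each library to a common median ratio took the member calls from 6 lower and 2 higher to 4 and 4 without TGF-beta. With TGF-beta it took them from 9 lower and 3 higher to 6 and 8. What lay behind the shift was not tested.

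TGF-beta by itself called no pore or transport gene in siCTL cells. With limma, 0 of 43 members passed the threshold (6 at an unadjusted p under 0.05), where 0.0986% of all genes tested were called (0.0329% lower, 0.0658% higher, and 15.7% at an unadjusted p under 0.05). The median change of the 43 was -0.07, and that of all genes tested was below 0 too, at -0.03. In siSFPQ cells 2 members were called lower and 0 higher, where 5.13% of all genes tested were called (2.88% lower, 2.25% higher, and 28.2% at an unadjusted p under 0.05). XPO6 fell by 0.33 (SE 0.06, adjusted p = 0.0341) and NUP210 by 0.35 (SE 0.07, adjusted p = 0.0349), each lower in 6 of 6 lines. In siCTL cells the same genes differed by -0.21 (XPO6, adjusted p = 0.121) and -0.24 (NUP210, adjusted p = 0.117). Both calls in siSFPQ cells were lost on leaving out any line but Hep3b (adjusted p 0.061 to 0.0946), and both had an adjusted p of 0.0513 under the common median ratio.

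The interaction between knockdown and TGF-beta, fitted over all 24 libraries, called 0 of 44 members (5 at an unadjusted p under 0.05), where 0.252% of all genes tested were called (0.0296% lower, 0.222% higher, and 12.5% at an unadjusted p under 0.05). The smallest adjusted p was that of KPNA2 (-0.18, SE 0.06, adjusted p = 0.257). XPO6 had -0.11 (adjusted p = 0.439). KPNA7, tested in this fit alone, had 0.57 (SE 0.20, adjusted p = 0.305). It was at 0.03, 0.10, 0.22 and 3.35 FPKM in HLE and at 0.73, 1.73, 0.49 and 3.41 FPKM in HepG2, in the order siCTL, siCTL with TGF-beta, siSFPQ and siSFPQ with TGF-beta, so in both lines the last was highest.

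Genes that work beside the members were described from lists that the symbol rule does not take. Of 13 tested pore components with other symbols, 2 were called lower and 0 higher without TGF-beta, and 4 lower and 1 higher with it; 15.4% and 38.5% of the list were thus called, against 21.7% and 30.3% of all genes tested. TMEM48 (now NDC1), a protein that anchors pores in the membrane, ran from 13.7 to 26.3 FPKM in siCTL cells (median 22.2) and from 5.29 to 15.9 FPKM in siSFPQ cells (median 7.64). It fell by 1.24 (SE 0.18, limma adjusted p = 0.00435), and by 1.33 (SE 0.18, adjusted p = 0.00304) with TGF-beta. The basket filament protein TPR fell by 0.68 (SE 0.20, adjusted p = 0.0367) and 0.70 (SE 0.20, adjusted p = 0.0263). POM121C, a pore membrane protein with near-identical copies between which reads may be split, differed by 0.25 (SE 0.09, adjusted p = 0.0734) and rose by 0.29 (SE 0.09, adjusted p = 0.0305) with TGF-beta.

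In the Ran cycle and among other carriers, 3 of 10 tested genes were called lower and 0 higher without TGF-beta, and 4 lower and 0 higher with it, where 15.0% and 21.8% of all genes tested were called lower. SNUPN, the adaptor that imports spliceosomal snRNPs, ran from 4.997 to 18.9 FPKM in siCTL cells (median 12.5) and from 4.32 to 9.61 FPKM in siSFPQ cells (median 6.09); it fell by 0.82 (SE 0.20, limma adjusted p = 0.0203) and by 0.86 (SE 0.16, adjusted p = 0.00688) with TGF-beta. The Ran-binding proteins RANBP1 and RANBP3 fell by 0.51 (SE 0.12, adjusted p = 0.0184) and 0.30 (SE 0.08, adjusted p = 0.0241). RAN itself differed by -0.18 (SE 0.08, adjusted p = 0.129), and fell by 0.24 (SE 0.08, adjusted p = 0.0446) with TGF-beta.

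Of 18 tested mRNA export genes, 5 were called lower and 1 higher without TGF-beta, and 9 lower and 1 higher with it (33.3% and 55.6% called, against 21.7% and 30.3% of all genes tested). The helicase DDX19B, which releases mRNA from its export receptor at the cytoplasmic face, was at 10.5 to 16.8 FPKM in siCTL cells (median 14.5) and 2.26 to 9.14 FPKM in siSFPQ cells (median 6.45), with no overlap. It fell by 1.12 (SE 0.16, limma adjusted p = 0.00393). DDX19A, a near-identical neighbour, fell by 0.69 (SE 0.15, adjusted p = 0.0142), and how reads were split between the 2 genes is uncertain. The THO complex members THOC2 and THOC7 moved in opposite directions: THOC2 fell by 0.64 (SE 0.13, adjusted p = 0.0122) and THOC7 rose by 0.40 (SE 0.08, adjusted p = 0.0114). Of 12 tested genes of the nuclear lamina and envelope 1 was called lower and 0 higher without TGF-beta, and 3 lower and 1 higher with it (8.33% and 33.3% called, against the same 21.7% and 30.3%). SYNE1, which links the envelope to the cytoskeleton, fell by 0.55 (SE 0.13, adjusted p = 0.0183). EMD (emerin) differed by 0.23 (SE 0.08, adjusted p = 0.0552) and rose by 0.22 (SE 0.07, adjusted p = 0.036) with TGF-beta, and LMNB1 (lamin B1) differed by -0.50 (SE 0.18, adjusted p = 0.0762) without it.

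Gene length was set beside the changes as a property the symbol rule did not use. TNPO3 spans 101 kb, rank 8 of the 43 tested members, of which the median span is 67.0 kb. Longer members did not fall more: over the 43, the change without TGF-beta and the log10 span had a Pearson r of 0.09 (Spearman 0.23), or 0.27 without TNPO3 (Spearman 0.29). Over the 11584 genes tested that have a span, r was -0.17 (Spearman -0.13). With TGF-beta the values were 0.16 for the members and -0.11 for all genes. These are correlations across genes, which share libraries and are not independent, and they carry no p.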

How the data were processed

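The tools named in the submitters' processing notes are TopHat2 2.1.1 and Cufflinks 2.2.1, with hg19; which annotation and settings went with them is not given here. The table the authors deposited is named as raw counts but holds FPKM. Its 2 empty columns were not used. Estimates under 1e-06 were set to 0, and 1603 of 23284 rows, short RNAs, were left out.

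Tests were run with limma 3.58.1 (R 4.3.3) on log2(FPKM + 1), so a change understates that of low genes. The cell line was a block, eBayes was run with trend and robust options, and p-values were adjusted (Benjamini-Hochberg) over every gene tested. A gene was tested with at least 1 FPKM in at least 6 of the libraries compared and called where its adjusted p was under 0.05. The comparisons of 2 groups used 12 libraries. The interaction was fitted over 24, with a term for each line and for the siRNA and TGF-beta effects within it. Each fit had 5 residual degrees of freedom and was checked on simulated data.

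Libraries of 1 line are paired by the labels. Deviations from group means correlated at 0.874 to 0.978 within a line and at -0.514 to 0.41 between libraries of different line and group. No libraries were identical.

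Members and lists were chosen with earlier results of these data known. Named are TNPO3, up to 3 members per role with the smallest p without TGF-beta, members called against the main direction or in a TGF-beta test, and up to 3 genes per neighbouring list. NUP43, NUP93, NUP133, NUP160, NUP188, KPNA1, KPNA4, KPNA6, KPNA7, KPNB1, IPO4, IPO7, IPO11, IPO13, XPO4, XPO5, XPOT, DDX19A, RAN and the named cell type markers were added after their values were seen. Alternatives covered the pseudocount, filters, scaling, GC trend, short RNAs, eBayes, the block and each line left out. Spans came from GENCODE and promoters from RefSeq, both of GRCh38 and matched by symbol; exon overlaps are from the same annotation.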

Additional observations from a re-analysis of the deposited data

Results flagged for a closer look

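In each of 196 sets of 6 values, which include the members' levels in a group, the value farthest from the rest was compared with the range of the set. It stood apart in 29 sets of 15 genes by a gap, relative to the range, above Dixon's limit for 6 values, which chance passes in about 1 in 20 sets. All values are FPKM.

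Hep3b stood apart most often. NUP160 was at 46.9 in siCTL, 46.6 in siCTL with TGF-beta, 45.5 in siSFPQ and 55.4 in siSFPQ with TGF-beta, and no other line exceeded 25.3. NUP98 was at 131.7, 121.6, 147.0 and 146.4 in the same order. NUP188 was at 95.2 in siSFPQ and 97.9 in siSFPQ with TGF-beta. IPO8 was at 17.2 in siSFPQ. In siSFPQ with TGF-beta, IPO9 was at 25.1, NUP155 at 34.9, NUP214 at 26.3 and NUP62CL at 6.72. The other lines were at 6.94 to 13.0 for NUP155 and 7.31 to 11.8 for IPO9, and Hep3b was also the highest line for both genes in siCTL cells with TGF-beta (35.4 and 27.7).

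Huh1 was high in KPNA7 (7.06, 8.48, 9.35 and 12.2 in the order above) and in TNPO3 in siCTL (39.5) and siCTL with TGF-beta (37.1), and low in NUP50 in siSFPQ (13.5). HepG2 was low in KPNA1 in siCTL with TGF-beta (9.02), siSFPQ (8.59) and siSFPQ with TGF-beta (9.39), and in NUP205 in siCTL with TGF-beta (14.5). SK-HEP1 was high in NUP93 in siCTL (90.6) and siSFPQ (98.4). Huh7 was low in NUP35 in siSFPQ (8.12). These levels are of 1 library each, and differences between lines carry no test.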

How the results depend on the processing

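TNPO3 was called by limma in both knockdown comparisons under 14 of 15 alternatives, at -1.89 to -1.46 without and -1.85 to -1.44 with TGF-beta; leaving out 1 line gave -1.78 to -1.46 and -1.75 to -1.44. Without the pairing by line (no replicate block) its changes of -1.65 and -1.64 had an adjusted p of 0.152 and 0.140, and no gene was called in any comparison (0). No called value of a named gene changed sign. Counts of members called and of all genes called moved more. Without TGF-beta (6 lower, 2 higher, 2608 genes), no filter on low values gave 1 lower, 1 higher and 1152 genes, the common median ratio 4 higher, GC trend removal 3 lower and 5 higher, and leaving out both Huh7 and HepG2, the lines of the shallowest libraries (chosen after seeing the data), 1 lower, 0 higher and 986 genes. Leaving out 1 line gave 1 to 6 lower, 1 to 2 higher and 1382 to 2205 genes. With TGF-beta (9 lower, 3 higher, 3639 genes), no filter gave 5 lower and 2410 genes, the common median ratio 8 higher, GC trend removal 5 lower and 9 higher, and leaving out Huh7 and HepG2 2 lower, 1 higher and 1657 genes; leaving out 1 line gave 4 to 11 lower, 1 to 3 higher and 2379 to 2989 genes. For TGF-beta in siCTL cells (12 genes) the count was 0 with no filter, 38 with 1 FPKM required in every library, 4 with GC trend removal, 1 with short RNAs kept, 1 with plain eBayes, 4 without Huh7 and HepG2, and 0 to 17 without 1 line. In siSFPQ cells (2 members lower, 610 genes) no filter gave 0 members and 15 genes, the common median ratio 0 and 395, short RNAs kept 341 genes, leaving out Huh7 and HepG2 0 and 67, and leaving out 1 line 0 to 2 members and 34 to 418 genes. The interaction (34 genes) gave 13 with a pseudocount of 0.1, 4 with no filter, 18 with short RNAs kept, 15 with plain eBayes and 8 to 28 without 1 line. Omitting a line leaves fewer libraries and no filter adds low genes to the adjustment; the cause of the other shifts was not tested. With no counts deposited, the depth behind each value is known only as an approximate ratio, and it limits low genes such as KPNA5 and KPNA7 most.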
